A study of Homo sapiens with 6 samples.

Results

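The transcripts of the mitochondrial genome were taken as every row of the count table whose gene symbol begins with MT-, which gave 37 of 29845 genes. They are the full set that the mitochondrial chromosome encodes in the annotation, with 13 mRNAs, 2 rRNAs and 22 tRNAs. Counts came from A549 cells, an established human lung epithelial cancer line. Control cells were transfected with the empty plasmid pIRES-hrGFP-1a, and TFAM-OE cells with the same plasmid carrying FLAG-tagged human TFAM. Each group had 3 biological replicates, and the question was how overexpression of TFAM changes the transcriptome. Transfection used a lipid reagent, and no sort for transfected cells is described. RNA was selected by its poly(A) tail before libraries were made.

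The mitochondrial chromosome is a small circle that is copied and transcribed inside the organelle. TFAM packs this DNA and bends it at the promoters, where a single-subunit RNA polymerase, POLRMT, starts long transcripts of either strand. The tRNAs lie between most of the mRNAs and rRNAs and are cut out of the precursors, which frees the molecules in between. All 13 mRNAs encode subunits of the respiratory chain or of the ATP synthase, and the rRNAs build the ribosome that translates them. Most mitochondrial mRNAs carry a short poly(A) tail, rRNAs a shorter one, and mature tRNAs end in an added CCA instead, so a poly(A)-selected library samples the classes unequally.

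Genes transcribed from the heavy strand are annotated on the plus strand of chromosome M, a molecule of 16569 bases in GRCh38. MT-ND6 and 8 tRNAs (MT-TQ, MT-TA, MT-TN, MT-TC, MT-TY, MT-TS1, MT-TE and MT-TP) are the genes of the light strand. The 250 bases before the first gene, MT-TF, are shown because transcripts of both strands start in this non-coding region, at chrM:327-576 on the plus strand of GRCh38.
region before MT-TF: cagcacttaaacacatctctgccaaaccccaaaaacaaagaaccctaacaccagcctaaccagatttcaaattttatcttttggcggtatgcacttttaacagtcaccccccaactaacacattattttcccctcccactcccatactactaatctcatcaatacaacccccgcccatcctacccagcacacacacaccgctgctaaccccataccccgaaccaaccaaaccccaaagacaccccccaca

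The protein-coding genes are packed so tightly that neighbours share bases. MT-ATP8 and MT-ATP6 share 46 bases, MT-ND4L and MT-ND4 share 7, and MT-ATP6 and MT-CO3 share 1. These junctions are shown because the genes on each side of them are compared below, with capitals for the bases that lie in both genes, at chrM:8497-8602, chrM:10730-10796 and chrM:9177-9237.
MT-ATP8/MT-ATP6 junction: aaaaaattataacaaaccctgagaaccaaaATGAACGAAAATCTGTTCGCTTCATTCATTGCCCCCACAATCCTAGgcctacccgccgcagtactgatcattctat
MT-ND4L/MT-ND4 junction: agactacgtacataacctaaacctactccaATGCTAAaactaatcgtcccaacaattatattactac
MT-ATP6/MT-CO3 junction: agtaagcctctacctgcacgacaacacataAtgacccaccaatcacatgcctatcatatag

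Several of these genes encode only the first base or bases of a stop codon, and the poly(A) tail completes it. That holds for MT-ND1, MT-ND2, MT-CO3, MT-ND3, MT-ND4 and MT-CYB, whose lengths are not multiples of 3. Their last 18 bases are shown, with the encoded stop bases in capitals, beside those of MT-ATP8 and MT-ATP6, which encode a whole stop codon. In this order they end at chrM:4262, 5511, 9990, 10404, 12137, 15887, 8572 and 9207, all on the plus strand.
MT-ND1 3 prime end: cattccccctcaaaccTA
MT-ND2 3 prime end: ttatactaataatcttaT
MT-CO3 3 prime end: tctattgatgagggtctT
MT-ND3 3 prime end: gattagactgaaccgaaT
MT-ND4 3 prime end: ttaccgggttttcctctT
MT-CYB 3 prime end: aaatactcaaatgggccT
MT-ATP8 3 prime end: ttgcccccacaatccTAG
MT-ATP6 3 prime end: ctgcacgacaacacaTAA

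The libraries held between 26650854 and 37321956 counted reads. The gene transfected, TFAM, had 73.0 ± 2.97 TMM-scaled CPM (the count relative to library size after edgeR's scaling for composition; SD, n = 3) in the control and 77.4 ± 5.58 CPM in the libraries labelled TFAM-OE (log2 fold change 0.08, 95% interval -0.13 to 0.30, adjusted p = 0.623, edgeR). A higher TFAM mRNA level was therefore not detected in the libraries labelled TFAM-OE, and every direction below is drawn from the labels. The study detected the FLAG-tagged protein by western blot, which was not analysed here. The epithelial keratins KRT7, KRT8, KRT18 and KRT19 and the A549 genes AKR1B10, AKR1C1, AKR1C2, ALDH1A1 and ALDH3A1 were abundant, with at least 3753 reads in each library, whereas EPCAM had between 9 and 32 reads and CDH1 between 117 and 249. Markers of leukocytes, endothelium and fibroblasts (PTPRC, PECAM1, VWF, CDH5 and DCN) had at most 4 reads in any library, COL1A1 had between 83 and 173, and CD68 had between 28 and 113. CD68 fell in the libraries labelled TFAM-OE (log2 fold change -1.21, adjusted p = 0.0152, edgeR), and the A549 gene ALDH3A1 rose (0.59, adjusted p = 0.0128), while AKR1C1 had -0.52 (adjusted p = 0.0531). Their part in the results was not tested.

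The mitochondrial genome took a larger part of the reads in the libraries labelled TFAM-OE. Its 37 genes held 2.70%, 2.67% and 2.80% of the counted reads in control replicates 1, 2 and 3. In TFAM-OE replicates 1, 2 and 3 the share was 3.95%, 3.71% and 4.07%. Every TFAM-OE library lay above every control library, with means of 2.72 ± 0.07% and 3.91 ± 0.19% (SD, n = 3) and a fold of 1.44. The two-sided exact permutation test gave p = 0.1, the smallest that 3 libraries against 3 allow. In bulk RNA, more of these transcripts per cell and a larger share of cells rich in them cannot be told apart. The same holds for more copies of the genome and more RNA from each copy, since DNA was not measured.

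Of the 37 genes, 30 had enough reads to be tested, and 10 rose at an adjusted p below 0.05. These were 7 mRNAs (MT-CO3, MT-ATP8, MT-ATP6, MT-ND6, MT-ND3, MT-ND5 and MT-CYB), both rRNAs and the tRNA MT-TF. Of all 16555 genes tested, 3.48% rose and 4.81% fell, and 0 of the mitochondrial genes fell in edgeR, DESeq2 or limma-voom. With 30 genes tested, cut from shared precursors, this 0 is not read as a contrast with the 4.81%. At an unadjusted p below 0.05, 16 rose and 0 fell in each of these tools. MT-CO3 alone also changed by at least 2-fold, as 0.447% of all genes did. In each of the 13 mRNAs and both rRNAs, and in 3 of the tested tRNAs, every TFAM-OE library was above every control library, a pattern found in 15.8% of all genes tested. The median log2 fold change was 0.50 over the mRNAs, 0.72 over the rRNAs and 0.22 over the 15 tested tRNAs, against -0.01 over all genes tested. The 2925 other genes at least as abundant as the least abundant of the mitochondrial mRNAs and rRNAs had a median of 0.04. The number of genes called rested partly on single libraries: it was 5 without control replicate 2 and between 7 and 13 without any other library.

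**Figure D1:**
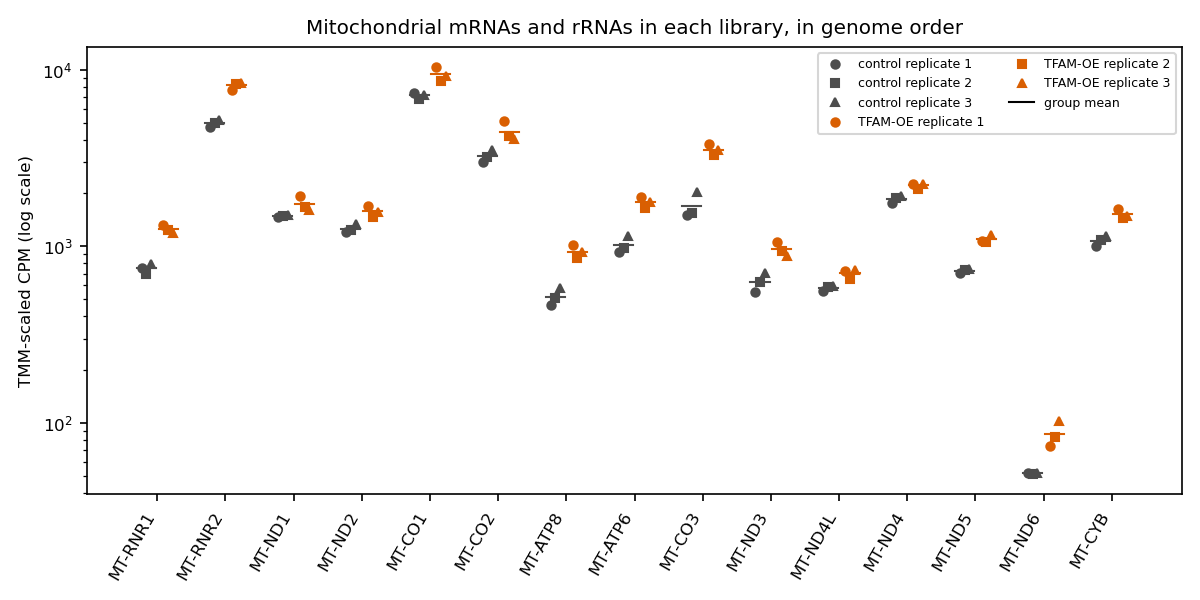
TMM-scaled CPM (log axis) of the 13 mRNAs and 2 rRNAs in genome order, with a point for each library, its shape giving the replicate number, and a line for each group mean. In all 15 genes the TFAM-OE points lie above the control points, and the gap is widest at MT-CO3.

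The widest changes lay in a run of 3 neighbouring mRNAs, MT-ATP8, MT-ATP6 and MT-CO3. MT-CO3, a core subunit of cytochrome c oxidase, had 1500.5, 1551 and 2033 CPM in control replicates 1, 2 and 3 and 3778, 3294 and 3527 CPM in TFAM-OE replicates 1, 2 and 3. Control replicate 3 stood above the other controls, and the groups did not overlap. Its log2 fold change was 1.06 (standard error 0.14, adjusted p = 0.00207, edgeR), a fold of 2.08. MT-ATP8, a small membrane subunit of the ATP synthase, had 467, 506 and 582 CPM in the control and 1010, 856 and 931 CPM in TFAM-OE. Here too control replicate 3 was the highest control, and it stayed well below the lowest TFAM-OE library. The log2 fold change of MT-ATP8 was 0.85 (standard error 0.11, adjusted p = 0.00288).

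MT-ATP6 encodes the subunit of the ATP synthase that forms its proton path, and it overlaps MT-ATP8 on a shared mRNA. Its level was 923, 980 and 1136 CPM in the control and 1900, 1646 and 1770 CPM in TFAM-OE. The libraries kept the order seen for MT-ATP8 in both groups, and the log2 fold change was 0.81 (standard error 0.11, adjusted p = 0.00341). Reads of MT-ATP6 to reads of MT-ATP8 stood at 1.95 ± 0.02 in the control and 1.90 ± 0.02 in TFAM-OE (SD, n = 3). This ratio was not planned and has no test. Every TFAM-OE library lay below every control by a small margin, so the reads of these genes moved nearly, though not wholly, in step. How reads that reach into both genes were counted is not given. Reads common to both and levels that moved together therefore cannot be told apart. MT-CO3, MT-ATP8, MT-ATP6 and MT-RNR1 were past the threshold under all 17 alternative settings in which they were fitted, apart from the 2-fold rule.

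The other subunits of cytochrome c oxidase changed by less. MT-CO1, its catalytic subunit, had 7424, 6875 and 7236 CPM in the control and 10324, 8631 and 9273 CPM in TFAM-OE. The groups did not overlap, but the log2 fold change of 0.39 (95% interval 0.14 to 0.64) had an adjusted p of 0.0623 in edgeR and was not called there, whereas DESeq2 (adjusted p = 0.0082) and limma-voom (adjusted p = 0.0486) called it, as did edgeR without TFAM-OE replicate 3 (adjusted p = 0.0244). MT-CO2, which takes electrons from cytochrome c, had 2992, 3206 and 3514 CPM in the control and 5133, 4207 and 4039 CPM in TFAM-OE. TFAM-OE replicate 1 was the highest here, and the log2 fold change of 0.46 (95% interval 0.18 to 0.74) just missed the threshold, with an adjusted p of 0.0502 in edgeR. DESeq2 (adjusted p = 0.00742) and limma-voom (adjusted p = 0.0448) called it, as did edgeR without TFAM-OE replicate 3 (adjusted p = 0.00878). Of the 17 alternative settings, however, only 5 called MT-CO1 and 7 called MT-CO2. In edgeR the adjusted p rose to 0.240 for MT-CO1 without control replicate 2 and to 0.213 for MT-CO2 without control replicate 1. The ratio of MT-CO3 to MT-CO1 reads was 0.202, 0.226 and 0.281 in the control and 0.366, 0.382 and 0.380 in TFAM-OE. This ratio was chosen after its values had been seen and has no test.

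The 7 mRNAs of complex I, the NADH dehydrogenase that feeds electrons into the chain, fell into a called and an uncalled set. MT-ND3, MT-ND5 and MT-ND6 rose, and the log2 fold changes of the other mRNAs of the complex, MT-ND1, MT-ND2, MT-ND4L and MT-ND4, lay between 0.22 and 0.33 and were not called in edgeR. MT-ND3 had 549.4, 625 and 702 CPM in the control and 1063, 939 and 882 CPM in TFAM-OE (log2 fold change 0.62, standard error 0.12, adjusted p = 0.0149, edgeR). MT-ND5, which encodes the largest product of the genome, had 706, 733 and 740 CPM in the control and 1069, 1062 and 1161 CPM in TFAM-OE. The replicates of MT-ND5 were close together in both groups, and its log2 fold change was 0.60 (standard error 0.09, adjusted p = 0.00555). MT-ND3 lost its call without control replicate 1, control replicate 2 or TFAM-OE replicate 2, and MT-ND5 without control replicate 2.

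MT-ND4L and MT-ND4 are carried on a shared mRNA, as MT-ATP8 and MT-ATP6 are. MT-ND4L had 560, 588 and 593 CPM in the control and 724, 656 and 736 CPM in TFAM-OE, a log2 fold change of 0.28 (95% interval 0.07 to 0.49, adjusted p = 0.094, edgeR). MT-ND4 had 1763, 1878 and 1918 CPM in the control and 2250.2, 2120 and 2260.5 CPM in TFAM-OE, a log2 fold change of 0.25 (95% interval 0.04 to 0.47, adjusted p = 0.133). Every TFAM-OE library of both genes lay above the controls, by a narrow margin in TFAM-OE replicate 2. The ratio of MT-ND4 to MT-ND4L reads was 3.19 ± 0.04 in the control and 3.14 ± 0.08 in TFAM-OE (SD, n = 3), with overlap. It too was not planned and has no test, and it has the same limit on reads that reach into both genes.

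MT-ND1 and MT-ND2 lie between the rRNAs and MT-CO1. MT-ND1 had 1468, 1490.4 and 1497 CPM in the control and 1918, 1663 and 1598 CPM in TFAM-OE. The controls agreed closely and TFAM-OE replicate 1 stood apart from the other TFAM-OE libraries. The log2 fold change of MT-ND1 was 0.22 (95% interval -0.02 to 0.45, adjusted p = 0.225, edgeR), the smallest of the 13 mRNAs. MT-ND2 had 1197, 1231 and 1345 CPM in the control and 1691, 1469 and 1568 CPM in TFAM-OE, with a log2 fold change of 0.33 (95% interval 0.10 to 0.55, adjusted p = 0.0798). The groups did not overlap for either gene, and MT-ND2 was called by DESeq2 (adjusted p = 0.0343) and in edgeR without TFAM-OE replicate 3 (adjusted p = 0.0393). These were the only 2 of the 17 alternative settings that called MT-ND2. Its adjusted p was 0.0705 in limma-voom and 0.270 in edgeR without control replicate 1. MT-CYB, the only subunit of complex III that this genome encodes, had 1007, 1085 and 1139 CPM in the control and 1618, 1449.7 and 1485 CPM in TFAM-OE. It rose by 0.50 on the log2 scale (standard error 0.10, adjusted p = 0.0179), and lost its call without control replicate 1, control replicate 2 or TFAM-OE replicate 2.

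**Figure D2:**
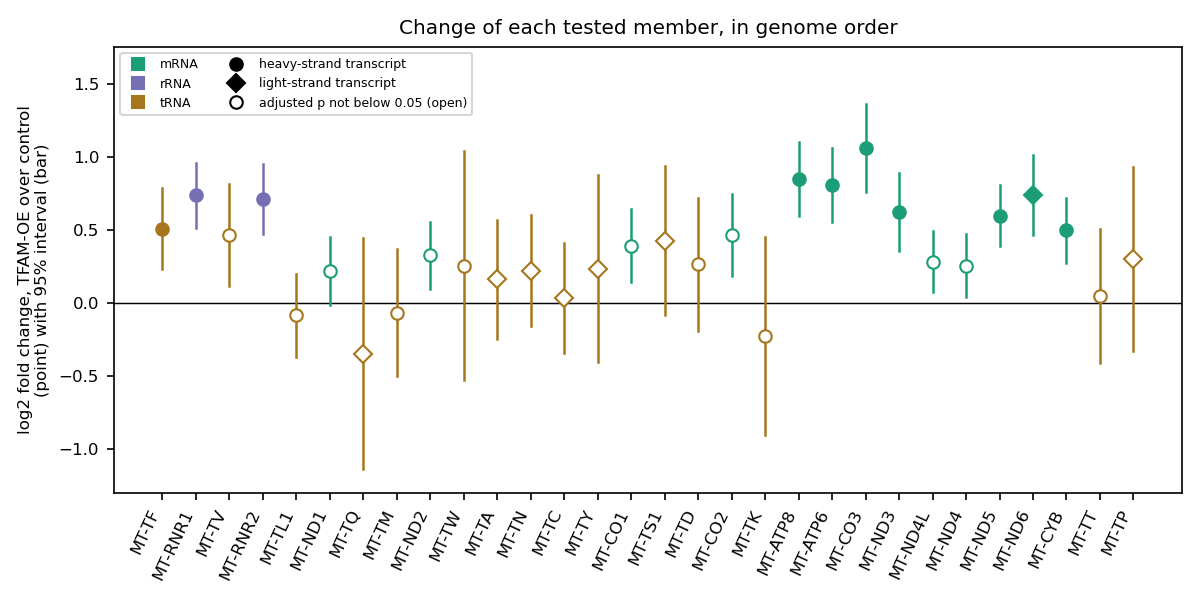
Log2 fold change of the 30 tested genes (TFAM-OE over control, edgeR) in genome order, with 95% intervals as bars, colours for mRNA, rRNA and tRNA, circles for heavy-strand and diamonds for light-strand genes, and filled points for an adjusted p below 0.05. The rRNAs, the run from MT-ATP8 to MT-ND3 and the run from MT-ND5 to MT-CYB are filled, as is the tRNA MT-TF, whereas MT-ND1, MT-ND2, MT-CO1, MT-CO2, MT-ND4L and MT-ND4 are open.

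Both rRNAs rose, to a like extent. MT-RNR1, the rRNA of the small ribosomal subunit, had 752, 699 and 796 CPM in the control and 1320, 1229 and 1188 CPM in TFAM-OE. Its log2 fold change was 0.73 (standard error 0.10, adjusted p = 0.00288, edgeR). MT-RNR2, the rRNA of the large subunit, had 4710, 5002 and 5219 CPM in the control and 7662, 8329 and 8448 CPM in TFAM-OE. The groups were well apart for both rRNAs, and the log2 fold change of MT-RNR2 was 0.71 (standard error 0.11, adjusted p = 0.00474). Reads of MT-RNR2 to reads of MT-RNR1 stood at 6.66 ± 0.46 in the control and 6.56 ± 0.68 in TFAM-OE (SD, n = 3; two-sided exact permutation p = 0.9).

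Within a library, rRNA gained on mRNA. The ratio of rRNA to mRNA reads was 0.265, 0.274 and 0.267 in control replicates 1, 2 and 3 and 0.276, 0.340 and 0.329 in TFAM-OE replicates 1, 2 and 3. TFAM-OE replicate 1 lay just above the controls and the other TFAM-OE libraries further up, and the difference of the log2 ratios was 0.22 (two-sided exact permutation p = 0.1, the smallest possible). With sums of FPKM in place of reads it was 0.17, and the p was 0.3. Since poly(A) selection keeps rRNA only in part, this ratio is one of recovered RNA.

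RNA of the light strand is read here mainly from MT-ND6, a complex I subunit and the only mRNA of that strand. MT-ND6 was the least abundant mRNA in these poly(A)-selected libraries, with 52.0, 51.1 and 52.0 CPM in the control and 73.9, 82.7 and 102 CPM in TFAM-OE. Its tail was not measured, so its level, its change and its ratio to heavy-strand mRNA are those of recovered RNA. The controls hardly differed, while the TFAM-OE libraries were spread, with replicate 3 the highest. The log2 fold change of MT-ND6 was 0.74 (standard error 0.12, adjusted p = 0.00773, edgeR), within the range of the 12 heavy-strand mRNAs, from 0.22 to 1.06 with a median of 0.48. The call was lost without control replicate 2, with an adjusted p of 0.0593. Set against the sum of the heavy-strand mRNAs in each library, MT-ND6 had ratios of 0.00253, 0.00246 and 0.00232 in the control and 0.00227, 0.00295 and 0.00348 in TFAM-OE. The groups overlapped, since TFAM-OE replicate 1 was the lowest library of all, and the difference of the log2 ratios was 0.23 (two-sided exact permutation p = 0.4). It was 0.09 without TFAM-OE replicate 3 and 0.40 without TFAM-OE replicate 1, so a difference between the strands was not shown. The kit keeps strand, but the use of strand in counting is not given in the sources used here. Without it, heavy-strand transcripts that run through the MT-ND6 locus cannot be told apart from MT-ND6 itself.

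**Figure D3:**
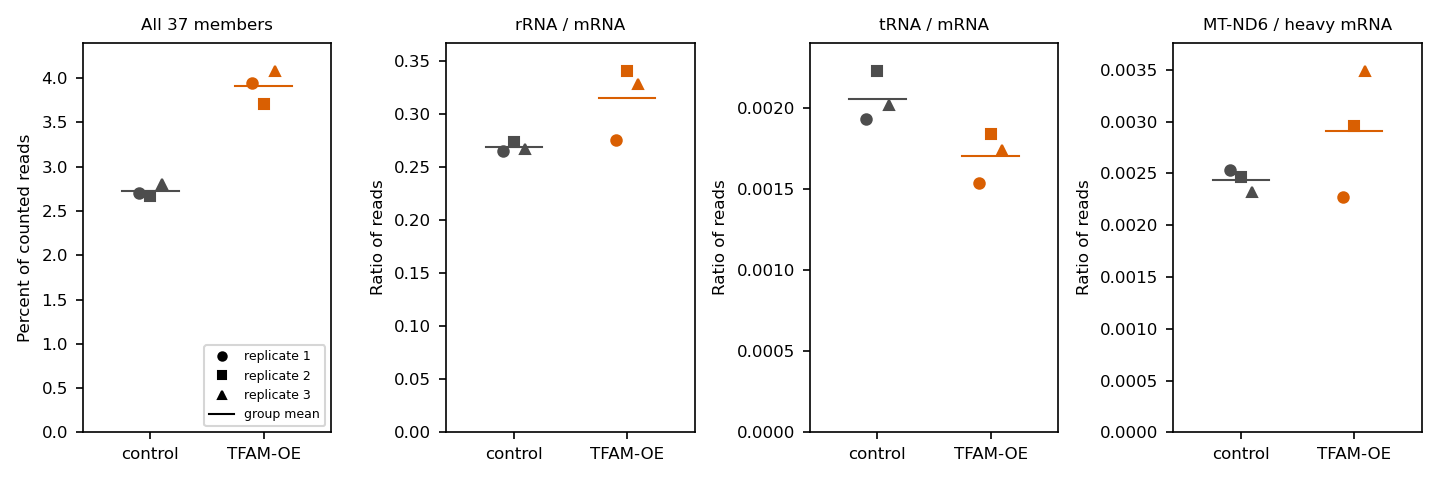
From left to right, the percent of counted reads on the 37 genes and the ratios of rRNA to mRNA, tRNA to mRNA and MT-ND6 to heavy-strand mRNA reads, on linear axes from 0, with a point for each library and a line for each group mean. The TFAM-OE libraries lie above the controls in the first and second panels and below them in the tRNA panel, and the groups overlap for MT-ND6.

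The tRNAs gave few reads and mostly small changes. All 22 together had between 1241 and 1877 reads in a library. By the sources used here, the deposited counts come from library fragments size-selected to be longer than a tRNA. Reads of precursors and of neighbouring RNAs that reach into a tRNA therefore cannot be told apart from those of the tRNA itself. MT-TF, the tRNA for phenylalanine and the first gene after the heavy-strand promoter, had 9.95, 11.1 and 12.0 CPM in the control and 14.8, 15.7 and 16.4 CPM in TFAM-OE. It was the only tRNA called (log2 fold change 0.51, standard error 0.13, adjusted p = 0.0375, edgeR). Its call was lost on leaving out any of control replicates 1, 2 and 3 or TFAM-OE replicate 2. MT-TV, the valine tRNA between the rRNAs, had 2.56, 2.69 and 2.62 CPM in the control and 3.61, 3.38 and 3.87 CPM in TFAM-OE, with a log2 fold change of 0.46 (95% interval 0.11 to 0.81, adjusted p = 0.0974).

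On the far side of MT-RNR2 the pattern differed. MT-TL1, a leucine tRNA that directly follows MT-RNR2, had 8.49, 8.93 and 8.05 CPM in the control and 8.19, 7.70 and 8.06 CPM in TFAM-OE. The groups overlapped, with a log2 fold change of -0.09 (95% interval -0.37 to 0.20, adjusted p = 0.709, edgeR). The sequences of MT-TF (chrM:577-647) and MT-TL1 (chrM:3230-3304), both on the plus strand, are given because these are the tRNAs with the most reads and they bound the rRNA block.
MT-TF: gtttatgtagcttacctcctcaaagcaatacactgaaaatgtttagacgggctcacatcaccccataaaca
MT-TL1: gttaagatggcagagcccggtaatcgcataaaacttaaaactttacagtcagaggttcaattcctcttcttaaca

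In the remaining 12 tested tRNAs no change was called. Their log2 fold changes ran from -0.35 (MT-TQ, 95% interval -1.14 to 0.44) to 0.42 (MT-TS1, 95% interval -0.09 to 0.93). MT-TS1, the light-strand serine tRNA after MT-CO1, had 1.22, 0.859 and 1.28 CPM in the control and 1.66, 1.43 and 1.47 CPM in TFAM-OE, without overlap. In the other 11 the groups overlapped. MT-TA, MT-TN and MT-TC, from the light-strand cluster before MT-CO1, had log2 fold changes of 0.16, 0.22 and 0.03. MT-TP, MT-TD, MT-TW, MT-TY and MT-TT lay between 0.04 and 0.30, and MT-TM and MT-TK at -0.07 and -0.23. The intervals of all 12 include 0, and for MT-TS1, MT-TP, MT-TY and MT-TW they also include the changes of both rRNAs.

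The median log2 fold change was 0.15 over the 8 tested heavy-strand tRNAs and 0.22 over the 7 tested light-strand tRNAs. The 7 tRNAs that were not tested, MT-TE, MT-TG, MT-TH, MT-TI, MT-TL2, MT-TR and MT-TS2, had between 0 and 10 reads in each library. MT-TI gave 5, 4 and 8 control reads against 8, 9 and 7 in TFAM-OE, and MT-TR gave 7, 6 and 8 control reads against 5, 6 and 3 in TFAM-OE. MT-TR was called lower only by limma-trend on log2(FPKM + 1), at these counts.

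Relative to mRNA, tRNA reads fell back in each TFAM-OE library. The ratio of tRNA to mRNA reads was 0.00194, 0.00223 and 0.00202 in the control and 0.00154, 0.00184 and 0.00174 in TFAM-OE. The groups did not overlap, and the difference of the log2 ratios was -0.27 (two-sided exact permutation p = 0.1, the smallest possible).

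**Figure D4:**
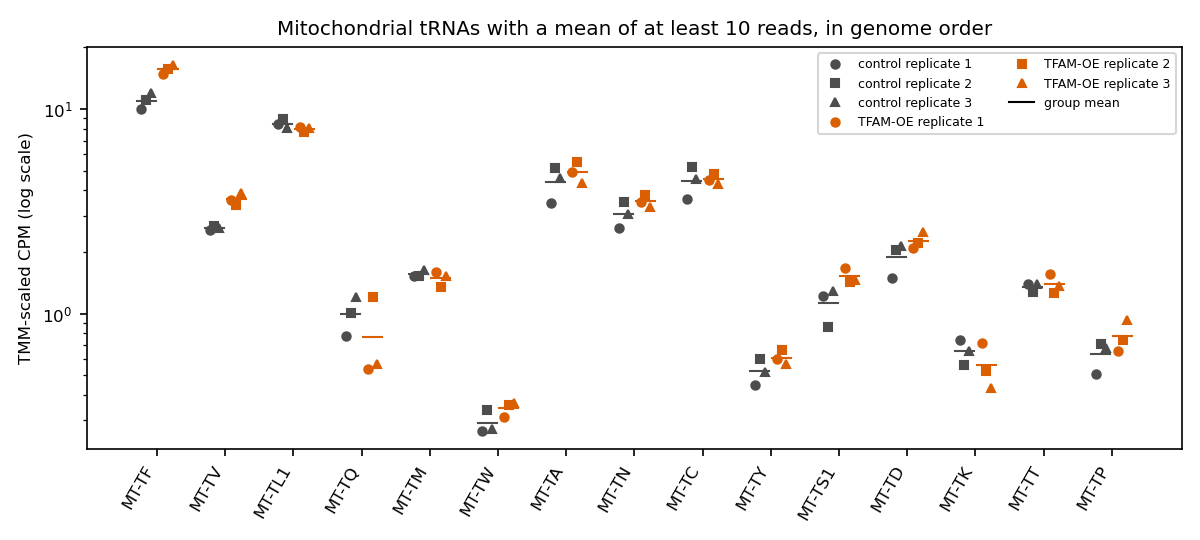
TMM-scaled CPM (log axis) of the 15 tRNAs with a mean of at least 10 reads, in genome order, with a point for each library and a line for each group mean. The TFAM-OE points lie above the control points at MT-TF, MT-TV and MT-TS1 and among them at the other tRNAs.

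Levels of the genes are listed per length, in the deposited FPKM (fragments scaled by transcript length and by mapped reads). Genes on a shared mRNA differed in FPKM. In the control, MT-ATP8 had 2135 ± 188 against 1268 ± 108 for MT-ATP6 (SD, n = 3). MT-ND4L had 1667 ± 11.2 against 1147 ± 19.5 for MT-ND4. FPKM values of different genes are therefore not read here as numbers of molecules. The order below is that of the deposited values, which count neither reads on nuclear copies nor reads without a unique place, so MT-ATP6, MT-CO1 and MT-ND2 in particular may stand higher than listed. In the control, MT-CO2 and MT-CO1 were highest, at 4036 ± 225 and 3977 ± 232 FPKM (SD, n = 3), with overlap. MT-RNR2 followed at 2723 ± 67.8, then MT-ATP8 at 2135 ± 188 and MT-CO3 at 1841 ± 278, whose libraries overlapped with each other. As poly(A) selection keeps rRNA only in part, the places of MT-RNR2 and MT-RNR1 among the mRNAs are those of recovered RNA. MT-ND4L, MT-ND3, MT-ND1, MT-ATP6, MT-ND4, MT-ND2, MT-CYB and MT-RNR1 lay between 1667 ± 11.2 and 670 ± 42.3 FPKM in this order. Among neighbours in it, the libraries of MT-CO3 and MT-ND4L, of MT-ND4L and MT-ND3 and of MT-ND1 and MT-ATP6 overlapped. The lowest were MT-ND5 at 342 ± 1.32 and MT-ND6 at 84.1 ± 2.62 FPKM. The order from MT-ND4L to MT-CYB changed in the libraries labelled TFAM-OE, where MT-ND3 (2329 ± 115 FPKM) and MT-ATP6 (2186 ± 155) came before MT-ND4L (1997 ± 187). There the libraries of MT-ATP6 overlapped with those of both MT-ND3 and MT-ND4L. MT-CO3, at 3786 ± 259 FPKM, stood level with MT-ATP8 at 3781 ± 299.

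The make-up of the mRNA pool shifted in the same places. MT-CO3 held 7.28%, 7.46% and 9.04% of the mitochondrial mRNA reads in the control and 11.6%, 11.7% and 12.0% in TFAM-OE. MT-ATP6 went from 4.75 ± 0.29% to 5.91 ± 0.11% and MT-ATP8 from 2.43 ± 0.16% to 3.11 ± 0.06% (SD, n = 3). MT-CO1 had the largest fall in share, from 33.8 ± 2.01% to 31.4 ± 0.53%, with every TFAM-OE library below every control. The shares of MT-ND1, MT-ND2, MT-ND4L and MT-ND4 were also lower, at 6.98 ± 0.28% against 5.75 ± 0.27% for MT-ND1 and 8.70 ± 0.28% against 7.39 ± 0.42% for MT-ND4. MT-CYB kept 5.06 ± 0.16% and 5.07 ± 0.10%. These shares add to the whole, so a larger one for MT-CO3 lowers the rest.

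Order on the genome did not line up with the changes in any simple way. Across the 14 heavy-strand mRNAs and rRNAs, the correlation of log2 fold change with start position was -0.02 (Pearson's r) and -0.06 (Spearman's rho), as a description across genes cut from shared precursors. With gene length it was -0.24 and -0.34 over 15 genes, and with the mean level -0.16 and -0.23. Along the genome, fold changes were high in the rRNAs, low in MT-ND1 and MT-ND2 and middling in MT-CO1 and MT-CO2. They were high from MT-ATP8 to MT-ND3, low in MT-ND4L and MT-ND4, higher again in MT-ND5 and middling in MT-CYB. This grouping was made after the values had been seen and was not tested. Its borders are not sharp, as MT-ND2 had 0.33 (standard error 0.10) and MT-CO1 0.39 (standard error 0.11). Reads of MT-ATP8, MT-ATP6 and MT-CO3 to reads of MT-ND4L and MT-ND4 were 1.24, 1.23 and 1.49 in the control and 2.25, 2.09 and 2.08 in TFAM-OE, a fold of 1.62 for a ratio chosen after the values had been seen. The 6 mRNAs with an incomplete stop codon had a median log2 fold change of 0.41 and the 7 with a whole one 0.60. MT-CO3 and MT-ND1, the extremes of the mRNAs, both belong to the first set.

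Some mitochondrial genes have near-identical copies in nuclear DNA, and reads between gene and copy are uncertain. A block of chromosome 1 holds such copies of MT-ND1, MT-ND2, MT-CO1, MT-CO2, MT-ATP8, MT-ATP6 and MT-CO3. MTATP6P1 (chr1:633696-634376, plus strand, GRCh38) differs from MT-ATP6 at 10 of 681 bases, an identity of 98.5%. Reads on this copy numbered 9632, 8265 and 13266 in the control libraries against 19716, 19066 and 17414 in TFAM-OE. That is between 23.7% and 24.7% of the reads on gene and copy together in every library. The log2 fold change of the copy was 0.85 (standard error 0.12, adjusted p = 0.00294, edgeR), beside 0.81 for MT-ATP6, and the sum of gene and copy gave 0.82.

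A stretch of 120 bases is shown to let the scale of the difference be seen, from chrM:8800-8919 and chr1:633969-634088, both plus strand. The capital marks its only difference, A334G, with positions counted from 1 at the first base of MT-ATP6 and the base of the gene given first.
MT-ATP6 stretch: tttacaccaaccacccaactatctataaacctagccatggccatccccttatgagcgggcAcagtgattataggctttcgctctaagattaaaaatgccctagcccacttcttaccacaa
MTATP6P1 stretch: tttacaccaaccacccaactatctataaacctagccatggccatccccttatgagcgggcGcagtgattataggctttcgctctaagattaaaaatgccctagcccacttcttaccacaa

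Copies of other genes took far fewer reads. MTND2P28, with 17 differences from MT-ND2, held between 2.13% and 2.60% of the reads on gene and copy, and its log2 fold change was 0.43 (adjusted p = 0.0304, edgeR). MTCO1P12, with 21 differences from MT-CO1, held between 0.434% and 0.472%, and its log2 fold change was 0.35 (adjusted p = 0.0702). These shares hardly differed between the groups, and the sums of gene and copy changed by 0.33 for MT-ND2 and 0.39 for MT-CO1 on the log2 scale, as the genes alone did.

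**Figure D5:**
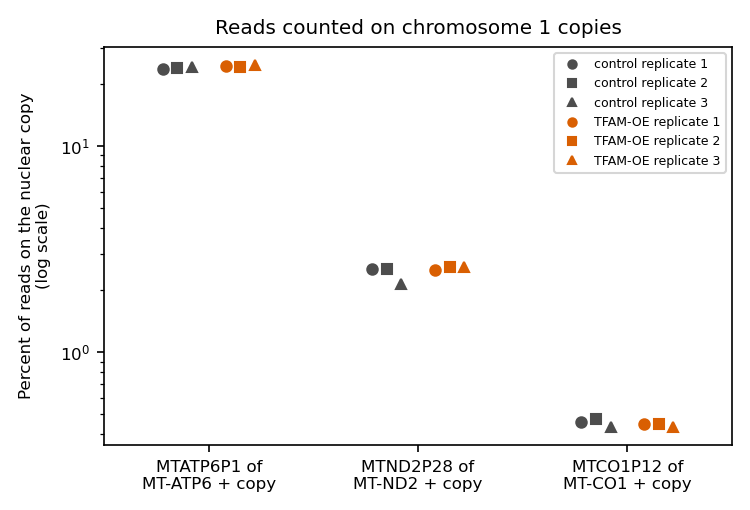
Percent of reads counted on the chromosome 1 copy among those on gene and copy together (log axis) for MT-ATP6, MT-ND2 and MT-CO1, with a point for each library. The share lies near 24% for MTATP6P1 in both groups and below 2.60% for the other copies.

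Exact matches bear on the counts in another way, since a read that lies wholly inside one has more than 1 place in the genome. Such a read is not uniquely mapped unless its mate, in the study's paired-end reads, gives it 1 place. Mates were not taken into account in the shares below. Nuclear chromosomes of GRCh38 hold 12 exact matches of at least 150 bases to the mitochondrial chromosome, the longest of 279 bases, and 10 of them lie in the chromosome 1 block. They cover 58.2% of MT-CO1, 42.0% of MT-ND2, 27.8% of MT-RNR1, 16.5% of MT-ND1, 12.6% of MT-ATP8 and 9.65% of MT-CO2. MT-ATP6, MT-CO3, MT-ND3, MT-ND4L, MT-ND4, MT-ND5, MT-ND6, MT-CYB and MT-RNR2 have 0% in such matches, and the tRNAs MT-TA, MT-TN, MT-TS1 and MT-TK have 100%. Among the other tRNAs, MT-TC has 90.9%, MT-TY 77.3%, MT-TI 71.0%, MT-TM 19.1% and MT-TD 4.41%, and the rest have 0%. Reads lost in this way would lower a gene in both groups. The part of these matches in the fold changes was not tested.

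Nuclear genes that act on mitochondrial DNA and RNA were read against the background of 3.48% higher and 4.81% lower over all genes tested. Of 18 tested genes for transcription and replication of the genome, TFAM and POLRMT included, 0 rose and 0 fell in edgeR, DESeq2 or limma-voom, with log2 fold changes from -0.25 to 0.28 and a median of 0.06 in edgeR. At an unadjusted p below 0.05, 1 of them rose in each tool. Of 28 genes for RNA cutting, modification and polyadenylation, 2 rose and 0 fell in each of these tools, with a median of 0.01, and at an unadjusted p below 0.05 in edgeR 3 rose and 2 fell. QTRT1, a subunit of the enzyme that puts queuosine into tRNAs of both cytosol and mitochondria, went from 17.4 ± 4.82 to 32.9 ± 4.10 CPM (SD, n = 3; log2 fold change 0.92, adjusted p = 0.0190). MRM1, a methyltransferase of the large-subunit rRNA, went from 20.7 ± 3.28 to 30.7 ± 3.43 CPM (log2 fold change 0.57, adjusted p = 0.0408).

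Of 21 genes for stability and decay of mitochondrial RNA, 0 rose and 1 fell in edgeR, with a median of -0.01, while DESeq2 called 1 higher and 1 lower. At an unadjusted p below 0.05 in edgeR, 1 rose and 2 fell. The gene that fell was PNPT1, an exoribonuclease that degrades RNA in mitochondria and is also known as a gene induced by interferon. PNPT1 went from 178 ± 13.2 CPM in the control to 79.8 ± 1.77 CPM in TFAM-OE (SD, n = 3), and its log2 fold change was -1.16 (standard error 0.09, adjusted p = 1.1e-04, edgeR). LRPPRC, which binds and stabilises mitochondrial mRNAs, had a log2 fold change of -0.23 (adjusted p = 0.348), and its partner SLIRP had -0.13 (adjusted p = 0.567). Both were named after their values had been seen.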

How the data were processed

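Libraries of poly(A) RNA were made with a stranded kit. After trimming, the authors mapped reads on GRCh38 by TopHat2, kept those with a unique place, and deposited raw counts and FPKM per gene for each library, unpooled. How reads were counted (program, annotation, strand) is not given in the sources used here. Of the deposited value columns, 0 were left unused for want of a sample. Counts summed to between 26650854 and 37321956 reads per library and were without molecular identifiers, so precision rests on the 3 replicates per group.

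Genes kept by filterByExpr (16555) were fitted with edgeR (4.0.16; R 4.3.3) on TMM-scaled counts of all 6 libraries, with group as the only term. The quasi-likelihood test was two-sided, with Benjamini-Hochberg adjustment over these genes. Intervals are 95% intervals of that fit. A fit of every gene with a read was not used as the main one, because it took a spread common to genes of like abundance. The fit was tested on simulated data. Shares and 4 ratios were compared with exact permutation tests (scipy 1.17.1). Coordinates and sequences come from GRCh38 with GENCODE version 44, which held all 37 genes by Ensembl ID, and identities to nuclear copies are from edit distances (edlib).

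The members, lists and tests were chosen with earlier results of these data known. Named were all mRNAs and rRNAs, tRNAs with a mean of at least 10 reads, TFAM, the 3 nuclear copies with most reads, and in each of the 3 nuclear lists up to 3 called genes of smallest p. Alternatives were other scalings (RLE, upper quartile, library size, TMM without the members), filters, DESeq2 (1.42.0), limma (3.58.1; voom, and trend on log2 FPKM with 0.1 or 1 added, over genes with a mean FPKM of at least 0.5), each library left out, replicate numbers as a block, and a 2-fold rule.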

Additional observations from a re-analysis of the deposited data

How the results depend on the processing

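The number of mitochondrial genes called higher, 10, lay between 10 and 13 under the other scalings, filters and tools, and all or all but 1 of the 10 (MT-TF with library size alone) were among them. It was 1 with the 2-fold rule, and between 5 and 13 with a library left out. Limma-trend on log2(FPKM + 1) also called 1 gene lower, MT-TR, which has at most 8 reads in a library. Replicate numbers as a block gave 5 calls (MT-ATP6, MT-ATP8, MT-CO3, MT-ND6 and MT-RNR1). For the ratios and the share, the block leaves the difference unchanged by construction. Their exact p-values in that setting were at least 0.25, the smallest that 3 pairs allow. The deviations of same-numbered libraries correlated at -0.30, 0.04 and -0.36, and not every library matched its own number best. Pairing by number was therefore not shown, but 3 libraries per group are too few to exclude it. Signs turned only at values near 0. With a library left out, the log2 fold change of MT-TM lay between -0.12 and 0.0053 (above 0 without TFAM-OE replicate 2), that of MT-TC between -0.0916 and 0.16 (below 0 without control replicate 1 and, at -0.011, without TFAM-OE replicate 2), that of MT-TT between -0.0445 and 0.117 (below 0 without TFAM-OE replicate 1), and the log2 difference of MT-RNR2 to MT-RNR1 between -0.0837 and 0.0625 (above 0 without TFAM-OE replicate 1 and, at 0.03, without control replicate 2). No other mitochondrial fold change, share or ratio changed direction under these alternatives. With a library left out, the rRNA to mRNA difference was between 0.16 and 0.32 and that of tRNA to mRNA between -0.33 and -0.20. Depth limits the tRNAs.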
